A study of Homo sapiens with 24 samples.

Results

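The genes described are 10 immediate early genes that follow signalling through surface receptors: EGR1, EGR2 and EGR3, NR4A1, NR4A2 and NR4A3, FOS, FOSB and JUNB, and IER2. They were taken by gene symbol from a table of 25161 symbols measured on 24 Clariom D arrays, a whole-transcriptome microarray, and each symbol matched 1 row of the table. The cells were 2 established B-cell lymphoma lines, SU-DHL-4, from a diffuse large B-cell lymphoma, and DG-75, from a Burkitt lymphoma. For 72 h each line received DMSO, the solvent, Entospletinib at 1 µM (Ento), AZD5153 at 0.01 µM (AZD), or the same doses of both compounds together (Ento+AZD). The 8 groups held 3 arrays each, described by the series as biological triplicates. Ento inhibits the spleen tyrosine kinase SYK, and AZD blocks BET proteins, which bind acetylated histones at enhancers and promoters. Each disease was represented by a single line, so that line and disease cannot be told apart. The treatment description names no receptor stimulus, so the values are those of growing cultures and not of a stimulation time course.

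Immediate early genes are transcribed within minutes of a signal and need no new protein synthesis to start. In B cells, antigen receptor engagement activates SYK, and the signal runs through BTK, PLCG2 and RAS to the kinase ERK, which activates ELK factors bound with SRF at CArG boxes, while CREB binds cyclic AMP response elements (CRE). Their messages are short-lived, and their products, mostly transcription factors, switch on the later part of the response.

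RefSeq promoters (GRCh38.p14) were found for 8 of the 10 genes. The 250 bases before the start site are shown for the 4 genes whose unadjusted p was under 0.05 in SU-DHL-4 under Ento+AZD, so that the known kinds of early gene element can be compared between them. All 4 lie on the plus strand, EGR1 at chr5:138465229-138465478, FOS at chr14:75278578-75278827, JUNB at chr19:12791236-12791485 and IER2 at chr19:13150161-13150410. Capitals mark CArG boxes, the CRE core TGACG on either strand (read as CGTCA where it lies on the other strand), and the TATA box TATAAA on the strand shown. No marked matches overlapped.
EGR1: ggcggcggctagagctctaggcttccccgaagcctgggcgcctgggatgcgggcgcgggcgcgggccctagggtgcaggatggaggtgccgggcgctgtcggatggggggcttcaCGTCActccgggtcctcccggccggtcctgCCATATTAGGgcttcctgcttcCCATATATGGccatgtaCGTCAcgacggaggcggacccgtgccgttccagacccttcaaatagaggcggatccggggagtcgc
FOS: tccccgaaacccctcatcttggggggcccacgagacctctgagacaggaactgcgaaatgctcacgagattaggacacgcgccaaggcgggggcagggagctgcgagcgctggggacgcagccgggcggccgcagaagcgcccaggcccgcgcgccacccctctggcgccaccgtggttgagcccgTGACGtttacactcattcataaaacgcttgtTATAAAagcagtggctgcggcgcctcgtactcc
JUNB: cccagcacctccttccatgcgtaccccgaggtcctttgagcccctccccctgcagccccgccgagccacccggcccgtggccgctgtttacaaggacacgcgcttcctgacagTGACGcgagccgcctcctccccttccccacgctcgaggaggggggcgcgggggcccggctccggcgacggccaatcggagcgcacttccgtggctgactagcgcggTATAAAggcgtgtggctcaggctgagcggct
IER2: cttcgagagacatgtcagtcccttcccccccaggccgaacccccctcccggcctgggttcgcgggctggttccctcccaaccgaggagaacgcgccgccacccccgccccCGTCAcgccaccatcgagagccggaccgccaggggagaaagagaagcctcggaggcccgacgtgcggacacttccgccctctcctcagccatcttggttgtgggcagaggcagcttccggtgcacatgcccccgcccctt

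EGR1 held 2 CArG boxes, from 105 to 96 and from 83 to 74 bases before the start, and the CRE core on the other strand from 135 to 131 and from 66 to 62. FOS held a CRE core from 64 to 60 and a TATA box from 33 to 28 bases before the start. No CArG box was found in the FOS window, and bases further upstream were not searched. JUNB held a CRE core from 137 to 133 and a TATA box from 31 to 26. IER2 held a CRE core on the other strand from 140 to 136 and neither a CArG box nor TATAAA in this window. The 8 genes have 11 such windows in the table, EGR2 and NR4A1 having several. A CRE core was present in 7 of the 11 windows, against 21.2% of 35116 promoter windows of the same length. The TATA box was present in 3 of 11, those of FOS, FOSB and JUNB, against 6.8% of all windows. A CArG box was present in 2 of 11, those of EGR1 and EGR2, against 1.16%. These matches describe the letters of the windows and were not tested against the expression values. An element missing from a window may still lie outside it, so the counts do not show which genes lack an element.

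Levels are log2 expression values from robust multi-array averaging (RMA), and a difference of 1 is a fold of 2. The correlation between replicate arrays ran from 0.981 to 0.992 over all rows, and array medians lay between 4.89 and 5.14. Detection values were not used, and a low value therefore does not show whether a gene was expressed. EGR1, NR4A1, FOS, JUNB and IER2 had a mean over the 24 arrays above the median row of the table, 5.05. The means of EGR2, EGR3, NR4A2, NR4A3 and FOSB, the other 5, lay below it, between 3.29 and 4.59. The SD of a gene within groups was above the table's median of 0.24 for 7 of the 10 genes and reached 0.45 for NR4A3, 0.38 for NR4A2 and 0.37 for EGR1. In both lines 6 of 6 B-cell marker genes and 3 of 3 measured germinal centre genes lay above the median row, as did 0 of 5 T-cell genes, 1 of 4 myeloid, 2 of 3 stromal and 1 of 3 erythroid genes. The means of the markers of the other cell types lay between 1.55 and 7.14 in SU-DHL-4 and between 1.52 and 7.10 for DG-75, and their part in the results was not tested.

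**Figure D1:**
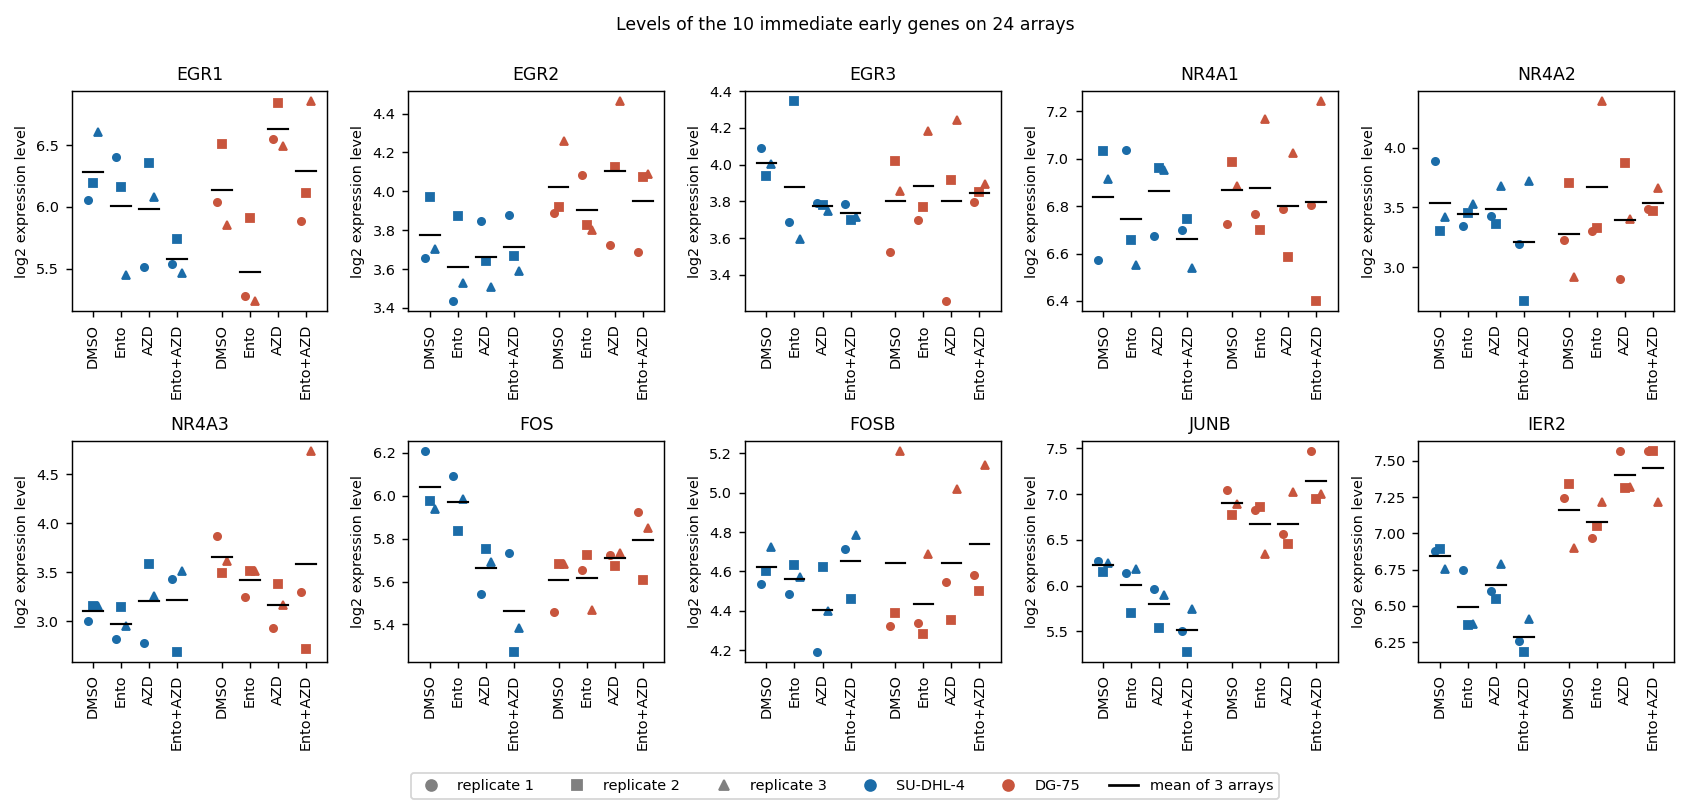
Each panel plots the log2 expression level of 1 gene, on its own vertical scale, in the 8 groups along the horizontal axis. Points are arrays with a shape for each replicate number, blue for SU-DHL-4 and red for DG-75, and lines are means of 3 arrays. JUNB and, by a very narrow margin, IER2 lie higher on every DG-75 array than on any SU-DHL-4 array. The points of EGR2, NR4A1 and NR4A2 overlap between all treatments within each line.

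None of the 10 genes passed the call rule, an adjusted p under 0.05 in limma together with a fold above 2, in any of 18 treatment comparisons, which made 180 tests. In 1 of the 180, JUNB in SU-DHL-4 under Ento+AZD against DMSO, the adjusted p was under 0.05 without the fold. Groups that share DMSO arrays are not independent, and the values of each comparison are given side by side for that reason.

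JUNB encodes a JUN family partner of FOS in the AP-1 transcription factor. In SU-DHL-4 its level was 6.27, 6.15 and 6.25 on the DMSO arrays, 6.14, 5.70 and 6.18 under Ento, 5.96, 5.53 and 5.90 under AZD, and 5.51, 5.28 and 5.75 under Ento+AZD. The order of the means from high to low was DMSO, Ento, AZD and Ento+AZD. All AZD and all Ento+AZD arrays lay below all DMSO arrays, while each group overlapped its neighbours in this order. Under Ento+AZD the level was 5.51 ± 0.23 (SD, n = 3) against 6.22 ± 0.07 under DMSO. JUNB was lower by 0.71 on the log2 scale (log2 fold change -0.71, SE 0.14, 95% interval -1.02 to -0.40, limma adjusted p = 0.0225), a fold of 1.64. The differences from the DMSO array of the same number were -0.76, -0.87 and -0.50. With any 1 of the 6 DMSO and Ento+AZD arrays left out, the limma adjusted p lay between 0.0601 and 0.153 and the change between -0.78 and -0.61. After quantile normalization the change was -0.60 with a limma adjusted p of 0.0517, and after subtraction of array medians it was -0.58 with an adjusted p of 0.0578. Without the replicate number in the model the adjusted p was 0.116. Bulk RNA cannot tell fewer cells of a kind from less RNA per cell.

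FOS, the AP-1 subunit that pairs with JUN proteins, ran 6.21, 5.98 and 5.94 under DMSO in SU-DHL-4, 6.09, 5.84 and 5.99 under Ento, 5.54, 5.75 and 5.69 under AZD, and 5.73, 5.27 and 5.38 under Ento+AZD. All AZD and all Ento+AZD arrays were below all DMSO arrays, and those of AZD and Ento+AZD overlapped each other, as did those of DMSO and Ento, while all AZD arrays lay below all Ento arrays. The log2 fold change under Ento+AZD was -0.58 (SE 0.15, 95% interval -0.91 to -0.24), with a limma adjusted p of 0.0788 that missed the threshold. IER2, a nuclear early gene that acts as a transcriptional regulator, ran 6.88, 6.89 and 6.76 under DMSO, 6.75, 6.37 and 6.37 under Ento, 6.60, 6.55 and 6.79 under AZD, and 6.26, 6.19 and 6.41 under Ento+AZD. Its Ento+AZD arrays were below all DMSO and all AZD arrays and overlapped the Ento arrays. The log2 fold change against DMSO was -0.56 (SE 0.15, 95% interval -0.89 to -0.23, limma adjusted p = 0.0866). Without rows under the median mean the adjusted p was 0.0285 for FOS and 0.0315 for IER2, and in 1 limma fit of all 24 arrays it was 0.0269 and 0.0436, with folds under 2 in every case.

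EGR1 is a zinc finger transcription factor induced through ERK. Its SU-DHL-4 values were 6.06, 6.19 and 6.61 under DMSO, 6.41, 6.17 and 5.45 under Ento, 5.51, 6.36 and 6.08 under AZD, and 5.54, 5.74 and 5.46 under Ento+AZD. Only the Ento+AZD arrays were all below the DMSO arrays, and the single agents spread across both. The log2 fold change under Ento+AZD was -0.71 (SE 0.26, 95% interval -1.27 to -0.14), as large as that of JUNB, but the limma adjusted p was 0.225. EGR3, a relative of EGR1 that with EGR2 restrains lymphocyte activation, also separated, from 3.94 to 4.09 under DMSO to between 3.70 and 3.79 under Ento+AZD, a change of -0.28 (limma adjusted p = 0.552) at a level below the median row.

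The other 5 genes overlapped between Ento+AZD and DMSO in SU-DHL-4. EGR2, which shares targets with EGR3, differed by -0.06 with an adjusted p of 0.913. NR4A1, NR4A2 and NR4A3 are orphan nuclear receptors, and NR4A1 is a reporter of antigen receptor signalling. They differed by -0.18, -0.33 and 0.11, with adjusted p from 0.528 to 0.892, and FOSB, a FOS relative, differed by 0.03. Of the members, 5 of 10 genes had Ento+AZD arrays wholly below the DMSO arrays, where 16% of all rows did. Unadjusted p was under 0.05 with a lower level for 4 of 10, where this held for 11.2% of rows. The call rule was met by 1.19% of rows in either direction, and an adjusted p under 0.05 alone by 2.36%. The median log2 fold change was -0.30 over the 10 genes and -0.08 over all rows, and 8 of 10 genes were below 0, as were 64% of rows. Under quantile normalization 7 of 10 genes and 47.1% of rows were below 0, and under subtraction of array medians 7 of 10 and 41.7%. The median of the 10 was -0.22 and -0.17 under these scalings, against 0.02 and 0.05 over all rows. With 1 array left out it lay between -0.43 and -0.19, the latter without Ento+AZD array 2.

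**Figure D2:**
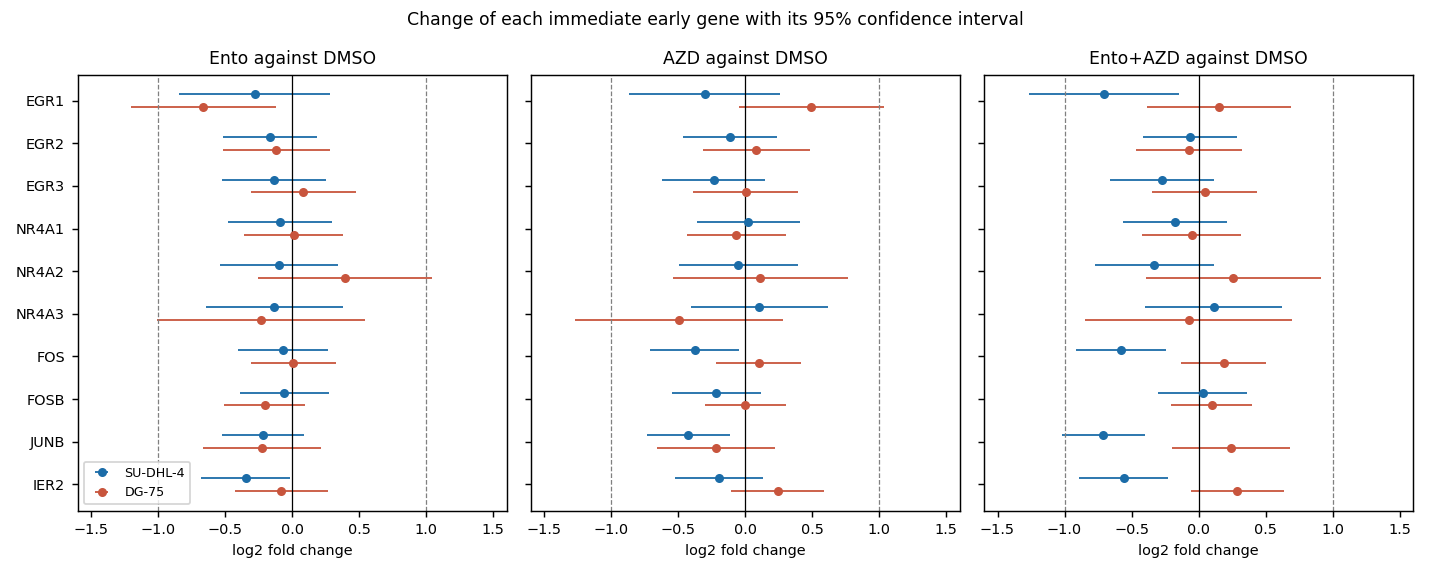
The panels plot the log2 fold change of each gene against DMSO under Ento, AZD and Ento+AZD, with 95% confidence intervals from limma, blue for SU-DHL-4 and red for DG-75 (3 arrays per group). Dashed lines mark a fold of 2. Under Ento+AZD the SU-DHL-4 intervals of EGR1, FOS, JUNB and IER2 lie below 0, the DG-75 intervals of all 10 genes include 0, and no SU-DHL-4 estimate reaches a fold of 2.

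The single agents gave no call in SU-DHL-4. Under Ento 0 of 10 genes were called, where 0.0508% of rows were, and the smallest limma adjusted p was 0.559, that of IER2 at -0.35 (SE 0.15, 3 of 3 same-numbered arrays lower), the 1 gene of 10 with Ento arrays wholly below DMSO arrays, as 9.33% of rows were. All 10 estimates were below 0, as were 62.4% of rows, while after quantile normalization 7 of 10 and 50.4% of rows were, and after subtraction of array medians 6 of 10 and 39.9%. The EGR1 differences between same-numbered arrays had opposite signs, at 0.35, -0.03 and -1.16. Under AZD 0 of 10 were called, against 0.18% of rows. JUNB was at -0.42 (SE 0.14, adjusted p = 0.275) and FOS at -0.38 (SE 0.15, adjusted p = 0.37). JUNB, FOS and EGR3 had AZD arrays wholly below DMSO arrays, 3 of 10 against 12.9% of rows.

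Adding AZD to Ento in SU-DHL-4 gave log2 differences of -0.51 for FOS (SE 0.15, limma adjusted p = 0.243) and -0.49 for JUNB (SE 0.14, adjusted p = 0.209), each lower on 3 of 3 same-numbered arrays. Adding Ento to AZD gave -0.40 for EGR1 (SE 0.26, adjusted p = 0.804), lower on 2 of 3 same-numbered arrays, -0.36 for IER2 (SE 0.15, adjusted p = 0.662) and -0.29 for JUNB (SE 0.14, adjusted p = 0.746), both IER2 and JUNB lower on 3 of 3. None of the 10 genes was called in these comparisons, where 0.0821% and 0.0274% of rows were, nor between AZD and Ento, where 0.379% were. The 95% interval ran from -0.84 to -0.17 for FOS in the former comparison and from -0.69 to -0.03 for IER2 in the latter, before adjustment over all rows.

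In DG-75 the same combination gave no call, and the estimates of the JUNB, IER2 and FOS changes were above 0. JUNB was 7.04, 6.77 and 6.89 under DMSO and 7.47, 6.95 and 7.0 under Ento+AZD, a change of 0.24 (95% interval -0.20 to 0.68, limma adjusted p = 0.633). IER2 was 7.24, 7.34 and 6.90 under DMSO and 7.57, 7.57 and 7.21 under Ento+AZD, a change of 0.29 (95% interval -0.06 to 0.63, adjusted p = 0.411). Both were higher on 3 of 3 same-numbered arrays, though the groups overlapped. FOS was 5.46, 5.68 and 5.68 under DMSO and 5.93, 5.61 and 5.85 under Ento+AZD, a change of 0.19 (adjusted p = 0.598). None of the 10 genes was called, where 0.833% of rows were, and none had groups without overlap, where 18.8% of rows did. The estimate was above 0 for 7 of 10 genes, with a median of 0.12, while 61.4% of all rows were below 0 with a median of -0.07. After quantile normalization 9 of 10 were above 0, with 47.7% of rows below 0, and after subtraction of array medians 10 of 10, with 47.1% below 0. On the deposited scale, without DMSO array 3 the count above 0 was 4 of 10, with a median of -0.02, and without another of the 6 arrays it was between 6 and 9. Array 3 was the highest of its group for 7 of the 10 genes under Ento+AZD, for 6 under Ento and for 6 under AZD, against 2 under DMSO.

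EGR1 had the widest range of group means of the 10 genes in DG-75. It was 6.04, 6.51 and 5.85 under DMSO, 5.28, 5.91 and 5.23 under Ento, 6.55, 6.84 and 6.50 under AZD, and 5.89, 6.11 and 6.86 under Ento+AZD. The order of means was AZD at 6.63, Ento+AZD at 6.29, DMSO at 6.14 and Ento at 5.48, and each group overlapped its neighbours in this order. Ento lay wholly below AZD, with a log2 difference of 1.15 for AZD against Ento (SE 0.24, 95% interval 0.62 to 1.69), higher on 3 of 3 same-numbered arrays by 1.27, 0.93 and 1.26. EGR1 and IER2 were the 2 of 10 genes with AZD wholly above Ento, as 5.2% of rows were. The limma adjusted p was 0.0648 and missed the threshold. It was 0.0419 in 1 limma fit of all 24 arrays, 0.0299 without rows under the median mean and 0.0153 with a prior variance that followed the level, while with any 1 of the 6 arrays left out it lay between 0.0851 and 0.347. Against DMSO, EGR1 differed by -0.66 under Ento (SE 0.24, 3 of 3 lower, limma adjusted p = 1.00) and by 0.49 under AZD (3 of 3 higher, adjusted p = 0.416).

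Adding AZD to Ento in DG-75 gave positive differences for EGR1 of 0.81 (SE 0.24, adjusted p = 0.134), JUNB of 0.46 (SE 0.20, adjusted p = 0.309), IER2 of 0.37 (SE 0.16, adjusted p = 0.299) and FOSB of 0.30 (SE 0.14, adjusted p = 0.334). Unadjusted limma p was under 0.05 for these 4 of the 10 genes with a higher level, where this held for 3.37% of rows. Without the Ento+AZD array numbered 3, the highest of its group for EGR1 at 6.86, the EGR1 difference was 0.42. The call rule was met by none of the 10 genes under Ento or AZD against DMSO, against 0.00391% and 0.18% of rows, and by none in the comparisons of Ento+AZD with Ento and with AZD and of AZD with Ento, against 0.657%, 0% and 0.344%. NR4A3 had an SD of 1.04 in the Ento+AZD group, with values of 3.30, 2.71 and 4.74, and NR4A2 reached 4.39 on the Ento array numbered 3 against 3.30 and 3.33 on the others. NR4A3 under AZD lay wholly below DMSO, between 2.93 and 3.38 against 3.50 to 3.87 (log2 fold change -0.50, adjusted p = 0.598), 1 gene of 10 where 14.6% of rows did.

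**Figure D3:**
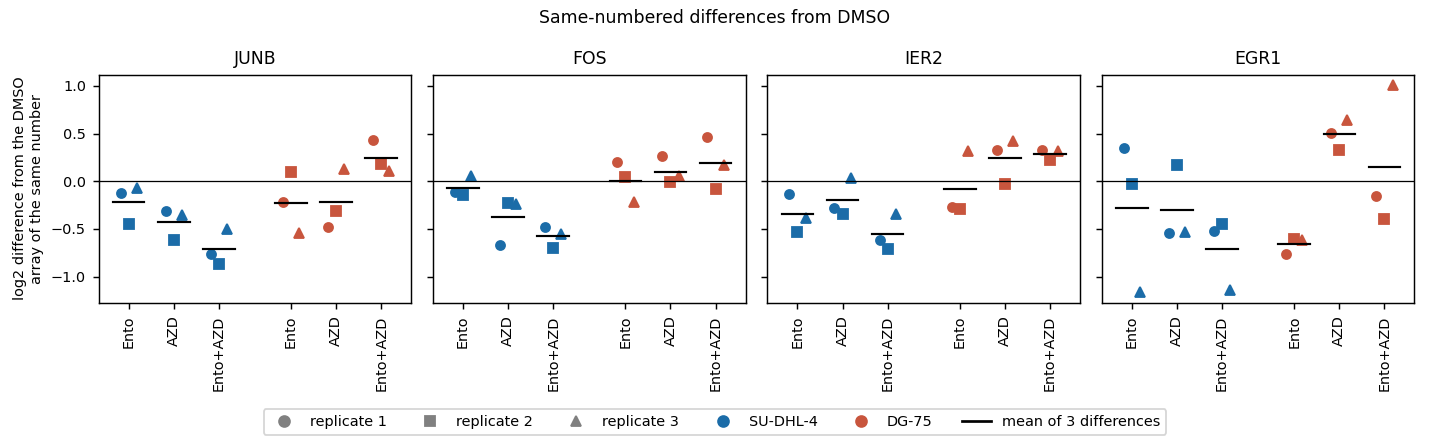
The vertical axis is the log2 difference between a treated array and the DMSO array with the same number, for JUNB, FOS, IER2 and EGR1 under each treatment along the horizontal axis, blue for SU-DHL-4 and red for DG-75, with lines at the mean of 3 differences. The genes shown had an unadjusted limma p under 0.05 and a lower level in SU-DHL-4 under Ento+AZD, which favoured differences below 0 there. Under Ento+AZD all 12 SU-DHL-4 differences of these genes are below 0, from -1.14 to -0.35, and the JUNB and IER2 differences in DG-75 are above 0.

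The difference between the lines in the response to Ento+AZD was tested in a limma fit of all 24 arrays. Subtracting the DG-75 change from the SU-DHL-4 change gave -0.95 for JUNB (SE 0.24, 95% interval -1.46 to -0.44, adjusted p = 0.244), -0.85 for IER2 (SE 0.21, adjusted p = 0.220), -0.76 for FOS (SE 0.20, adjusted p = 0.268) and -0.86 for EGR1 (SE 0.38, adjusted p = 0.737). None passed the threshold over all rows, which 0.0352% of rows passed with the fold. Unadjusted p was under 0.05 with a more negative response in SU-DHL-4 for these 4 of the 10 genes, where it was for 3.85% of rows. The difference was below 0 for 8 of 10 genes, as for 52.1% of rows, with a median of -0.46 against -0.01, and the count was 8 of 10 under both other scalings. For AZD alone the difference was -0.80 for EGR1 (adjusted p = 0.814), 0.60 for NR4A3 (adjusted p = 0.925), -0.48 for FOS (adjusted p = 0.746) and -0.44 for IER2 (adjusted p = 0.813), and for Ento alone the smallest adjusted p was 1.00. None of the 10 was called for AZD or Ento, against 0% and 0.00782% of rows. Over both lines together, with line as an additive term, none of the 10 was called under Ento, AZD or Ento+AZD, against 0.00391%, 0.25% and 0.848% of rows, and the smallest adjusted p was 0.844, 0.310 and 0.429.

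The DMSO arrays of the lines differed in JUNB and FOS. JUNB was 6.22 ± 0.07 (SD, n = 3) in SU-DHL-4 against 6.90 ± 0.14 in DG-75 under DMSO, a log2 difference of -0.68 (SE 0.17, limma adjusted p = 0.00773), which held with each array left out in turn (adjusted p up to 0.0379). FOS went the other way, 6.04 ± 0.15 in SU-DHL-4 against 5.61 ± 0.13 in DG-75, a difference of 0.43 (SE 0.14, limma adjusted p = 0.0352). With 1 array left out the FOS adjusted p lay between 0.0379 and 0.224, and was under 0.05 in 2 of 6 fits. It was lost without SU-DHL-4 array 1, 2 or 3 or DG-75 array 1. IER2 was lower in SU-DHL-4 by 0.32 with groups that did not overlap and an adjusted p of 0.172. NR4A3, at -0.56, also had groups that did not overlap, which made 4 of 10 genes against 33.3% of rows. Without the fold, 2 of 10 genes passed, against 18.1% of rows, and with it 0 of 10, against 7.24%. Over all treatments, JUNB ran from 5.28 to 6.27 on the 12 SU-DHL-4 arrays and from 6.35 to 7.47 on the 12 DG-75 arrays, and IER2 from 6.19 to 6.89 and from 6.90 to 7.57. JUNB and IER2 were thus the 2 of 10 genes without overlap between lines, which 9.19% of rows shared. For IER2 the lines all but touched, at 6.895 on the highest SU-DHL-4 array and 6.897 on the lowest DG-75 array. FOS was higher in SU-DHL-4 under DMSO and overlapped between the lines over all 24 arrays, from 5.27 to 6.21 and from 5.46 to 5.93.

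The wider pathway was followed with lists that were drawn up knowing earlier results of these data. Among 7 AP-1 relatives, JUN, the main partner of FOS, was called in SU-DHL-4 under AZD against DMSO with a log2 fold change of -1.04 (SE 0.15, limma adjusted p = 0.0325). Its values were 6.73, 4.85 and 6.31 under DMSO and 5.88, 3.55 and 5.34 under AZD, so the array numbered 2 was low in both groups and the difference appeared within numbers. Under Ento+AZD the change of JUN was -0.90 (SE 0.15, adjusted p = 0.0121, and under 0.05 in 3 of 6 fits with 1 array left out), and in DG-75 it was 0.98 (SE 0.30, adjusted p = 0.125). Without the replicate number in the model the adjusted p of JUN in SU-DHL-4 was 0.662 under AZD and 0.660 under Ento+AZD. The call under AZD was lost with any 1 of the 6 arrays left out, with adjusted p from 0.0429 to 0.196, the lowest at a fold under 2. It was also lost with quantile normalization (adjusted p = 0.125), with array medians subtracted (0.0751), in 1 fit of all 24 arrays (0.0664) and in a fit of the 2 groups alone (0.0732). Against Ento, AZD lowered JUN by 1.12 on the log2 scale (log2 fold change -1.12, adjusted p = 0.00655), a call lost without AZD array 3 (0.0536) or Ento array 3 (0.0586), without the replicate number (0.721) and in a fit of the 2 groups alone (0.174).

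Of 26 other early response genes, DUSP1, the phosphatase that switches off MAP kinases, was called in SU-DHL-4 under AZD (log2 fold change -1.25, SE 0.20, limma adjusted p = 0.0341) and under Ento+AZD (-1.06, SE 0.20, adjusted p = 0.0172), with adjusted p of 0.559 and 0.548 without the replicate number. With 1 array left out the call under AZD was kept only without AZD array 2, with adjusted p from 0.0260 to 0.203, and was lost with quantile normalization (0.0677), with array medians subtracted (0.0584) and in a fit of the 2 groups alone (0.0688). With 1 array left out the call under Ento+AZD was kept only without DMSO array 1 or Ento+AZD array 1, with adjusted p from 0.0264 to 0.130. With quantile normalization (-0.97) and with array medians subtracted (-0.93) it fell short of a fold of 2, so that this call was lost too. Its DMSO arrays read 7.39, 6.09 and 7.41, and the Ento+AZD arrays 6.70, 4.69 and 6.32. DUSP1 was also called under AZD against Ento in SU-DHL-4 (log2 fold change -1.01, SE 0.20, limma adjusted p = 0.0466). That call was kept in 2 of 6 fits with 1 array left out. It was lost without the replicate number (0.732), in a fit of the 2 groups alone (0.377) and, at a fold under 2, with quantile normalization (-0.88). In DG-75 under Ento+AZD, DUSP1 read 6.87, 6.53 and 6.40 against 5.96, 6.23 and 5.58 under DMSO, higher by 0.67 (SE 0.15, adjusted p = 0.0437) and without overlap, but under a fold of 2. With any 1 of the 6 arrays left out its adjusted p was above 0.05, from 0.0535 to 0.251, and without the replicate number it was 0.0996. SGK1, a kinase downstream of PI3K, was called higher in SU-DHL-4 under Ento+AZD (log2 fold change 1.59, SE 0.34, adjusted p = 0.0305), a call kept only without Ento+AZD array 2 when 1 array was left out (adjusted p from 0.0474 to 0.176). It was also lost without the replicate number (0.0970) and in 1 fit of all 24 arrays (0.0545).

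In DG-75 other early response genes were called. BTG2, an antiproliferative early gene, and CD69, an early activation antigen of lymphocytes, were called higher in DG-75 under Ento+AZD, by 1.19 (SE 0.20, adjusted p = 0.0214) and 1.66 (SE 0.26, adjusted p = 0.0188). With 1 array left out BTG2 kept its call only without Ento+AZD array 3 (adjusted p from 0.0247 to 0.168), and CD69 lost it without DMSO array 1 or 3 or Ento+AZD array 1 (0.150, 0.0602 and 0.123). Against Ento alone both passed the call rule, at 1.09 and 1.59, but each kept the call in 2 of 6 fits with 1 array left out. BTG2 lost it without Ento+AZD array 1 or 2 or Ento array 1 or 2 (adjusted p up to 0.197), and CD69 without Ento+AZD array 1 or 3 or Ento array 1 or 2 (up to 0.158). Both lost it in a fit of the 2 groups alone (0.180 and 0.159). The BTG2 difference was 0.02 in SU-DHL-4, and that of CD69 0.87 (SE 0.24, adjusted p = 0.0946). CD69 read 4.30, 4.71 and 4.46 under DMSO, 6.19, 6.13 and 5.28 under Ento, and 4.60, 4.85 and 3.81 under AZD in SU-DHL-4, and it was lower under AZD than under Ento by 1.44 on the log2 scale (log2 fold change -1.44, SE 0.24, adjusted p = 0.0209), a call kept only without AZD array 2 when 1 array was left out (adjusted p from 0.0222 to 0.139) and lost without the replicate number (0.119) and in a fit of the 2 groups alone (0.0608). Over both lines CD69 was the 1 gene of these lists called under Ento+AZD, at 1.27 (SE 0.31, adjusted p = 0.0133), where 0.848% of all rows were called.

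Under Ento+AZD 18 of the 26 early response genes were below 0 in SU-DHL-4, with a median of -0.17, against 6 of 26 in DG-75, with a median of 0.25. Of all rows 64% were below 0 in SU-DHL-4, with a median of -0.08, and the count there is near that share. In DG-75 it was 61.4%, with a median of -0.07. Under quantile normalization the counts were 15, where 47.1% of rows were below 0, and 2, where 47.7% were. Under subtraction of array medians they were 14, where 41.7% were, and 5, where 47.1% were. The difference between the lines, SU-DHL-4 less DG-75, was below 0 for 24 of the 26, with a median of -0.43, against 52.1% of rows and a median of -0.01, and the count was 24 under both other scalings. DUSP1 was the single gene of the lists whose difference between the lines was called (-1.74, SE 0.25, limma adjusted p = 0.0126). The call was kept in 7 of 12 fits with 1 array left out and was lost without the replicate number (0.856). Each line supplied its own DMSO arrays to these differences, and all the genes were measured on the same arrays, so that the 26 values are not independent.

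**Figure D4:**
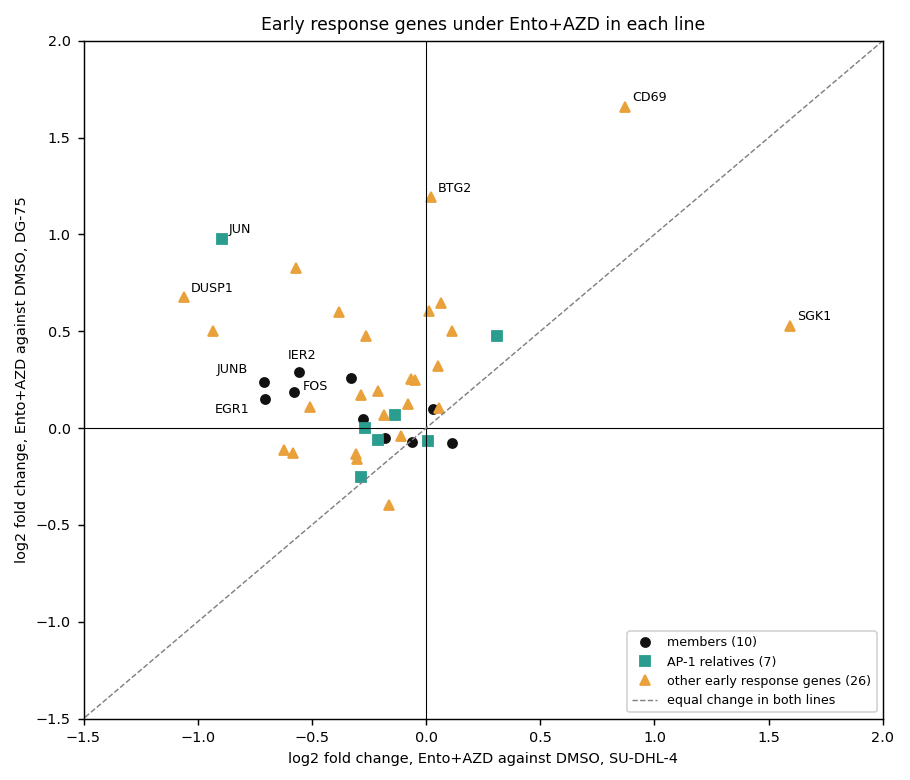
Each point is a gene, placed by its log2 fold change under Ento+AZD against DMSO, that of SU-DHL-4 on the horizontal axis and that of DG-75 on the vertical axis, with the 10 immediate early genes as black circles, 7 AP-1 relatives as green squares and 26 other early response genes as orange triangles. The dashed line marks equal change, and most points lie above it, among them JUNB, FOS, IER2, EGR1, JUN and DUSP1 in the upper left, while SGK1 lies below it.

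Of 16 genes on the way from the B-cell receptor to ERK, CD79B, a signalling chain of the receptor, was called in DG-75 under Ento+AZD, at 1.03 (SE 0.19, limma adjusted p = 0.0227). Of all rows 0.833% were called there. The CD79B call was kept only without Ento+AZD array 3 when 1 array was left out (adjusted p from 0.0211 to 0.174). Under Ento+AZD the median change of the 16 was 0.01 for SU-DHL-4 and -0.02 for DG-75. The medians of all rows were -0.08 and -0.07. Under quantile normalization the list's medians were 0.11 and 0.13, and with array medians subtracted 0.13 and 0.07. By adjusted p alone, over both lines, 2 of the 16 were higher under Ento+AZD, where 1.18% of rows were, CD79B at 0.63 and the kinase SYK at 0.36. Lower were 2 of the 16, NRAS at -0.29 and MAPK3, where 6.58% of rows were. SYK, NRAS and MAPK3 were named after their values were seen. With 1 array left out the adjusted p was under 0.05 in 7 of 12 fits for CD79B (0.0123 to 0.0614), 9 of 12 for SYK (0.0195 to 0.0774) and 4 of 12 for NRAS (0.0253 to 0.0876). NRAS also missed it without the replicate number (0.0566), under quantile normalization (-0.15, 0.209) and with array medians subtracted (-0.18, 0.178). MAPK3, the kinase ERK1, was lower at -0.66 (SE 0.12, adjusted p = 0.00193, and under 0.05 in 12 of 12 fits with 1 array left out), and at -0.87 in SU-DHL-4 alone (SE 0.17, adjusted p = 0.0218, under 0.05 in 1 of 6 such fits and 0.0959 without the replicate number). Under AZD over both lines it was -0.59 (adjusted p = 0.0122, or 0.0669 after quantile normalization). Of 9 upstream factors and EGR co-repressors, 0 were called under any treatment. Their medians under Ento+AZD were -0.03 for SU-DHL-4 and 0.01 for DG-75, or 0.10 and 0.15 under quantile normalization and 0.10 in each line with array medians subtracted. By adjusted p alone, 1 of the 9, the co-repressor NAB1, also named after its values were seen, was lower over both lines. Under Ento+AZD, where 6.58% of rows were lower, it was at -0.53 (SE 0.10, adjusted p = 0.00273, under 0.05 in 12 of 12 fits with 1 array left out). Under AZD, where 3.26% of rows were lower, it was at -0.41 (SE 0.10, adjusted p = 0.0315, in 4 of 12). The change under AZD was -0.27 under quantile normalization (adjusted p = 0.0872) and -0.31 with array medians subtracted (0.106). Between the untreated lines 7.24% of all rows were called, and the list genes called there are given against that share. ELK3, an SRF partner that can repress, was higher in SU-DHL-4 by 1.70 (SE 0.22, adjusted p = 6.48e-06). Of the early response genes, BTG2 was higher there by 1.79 (SE 0.22, adjusted p = 3.41e-06), and NFKBIA and TNFAIP3, which restrain NF-kappaB, were lower, at -2.02 (SE 0.31, adjusted p = 4.68e-05) and -2.25 (SE 0.36, adjusted p = 8.28e-05). JUN was higher in untreated SU-DHL-4 by 1.26 (SE 0.39, adjusted p = 0.0283), but its groups overlapped, and the call was lost without SU-DHL-4 array 1 (0.132) or 3 (0.0875) or DG-75 array 1 (0.0974) or 3 (0.117), and without the replicate number (0.160). CD79B was higher there by 1.16 (SE 0.19).

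The genes most like the 10 in their pattern were found by correlation with the mean of the 10 over the 24 arrays, after each line's mean was subtracted, among 12604 symbols at or above the median row. They were HSPA1B (Pearson r = 0.74), ZNF224 (0.73), CD164 (0.73), ZNF567 (0.69) and ZNF17 (0.66). The 10 genes themselves correlated with that mean, of which each is a part, at 0.26 for EGR2 to 0.64 for EGR1. The points share arrays and scaling, and the highest of many correlations are given as a description.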

How the data were processed

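Total RNA of SU-DHL-4 and DG-75 cells was measured on 24 Clariom D arrays. The deposited table holds log2 values that the authors made by RMA normalization with limma, with probes mapped to genes through affycoretools. The genome build and annotation version are not given in the sources used here. Deposited values were used unchanged, and 0 columns were left unused. With limma 3.58.1 under R 4.3.3, each line was fitted with 4 treatments and the replicate number as a block, because the study's model has a batch term whose meaning is not stated. Line differences came from fits of all 24 arrays. For differences in response the replicate number was a block within each line. For the untreated lines, and for both lines together, it was a block shared by the lines. Deviations of arrays of different lines correlated at a median of 0.004 with the same number and 0.005 with another. P-values were adjusted by Benjamini-Hochberg over 25575 rows, and a call needed an adjusted p below 0.05 together with a fold above 2, the study's thresholds. P-values rest on the spread left among all arrays of a fit after treatment and replicate number. That spread was shared by the groups of the fit and moderated by limma over all rows. Each group held 3 arrays. Values are given for the 10 genes, for pathway genes called in a comparison, and for MAPK3, NAB1, NRAS and SYK, which were added after their values were seen. The members and lists were chosen with earlier results of these data known. Promoters came from RefSeq (GRCh38.p14), with 2 of the 10 genes not matched. Alternatives were other scalings, fits, filters, prior variances, averaged rows, no block, no fold minimum and omission of each array. The calculations were tested on simulated data.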

Additional observations from a re-analysis of the deposited data

Results flagged for a closer look

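DUSP1, the MAP kinase phosphatase, responded differently to Ento+AZD in the 2 lines by limma's test of the difference itself, with a difference, SU-DHL-4 less DG-75, of -1.74 (adjusted p = 0.0126). The call was kept in 7 of 12 fits that left out 1 array, and was lost without DG-75 DMSO array 1 or 3, DG-75 Ento+AZD array 1, or SU-DHL-4 Ento+AZD array 2 or 3, with adjusted p from 0.0509 to 0.0688. The estimates without 1 array lay between -1.89 and -1.56. Without the replicate number in the model the adjusted p was 0.856.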

How the results depend on the processing

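Counts of called genes among the 10 were recomputed 307 times, and 5 differed from the main count. Without a fold minimum the count was 1 for Ento+AZD against DMSO in SU-DHL-4 (JUNB) and 2 between the untreated lines (JUNB and FOS). For AZD against Ento in DG-75 it was 1 (EGR1) in 1 fit of all 24 arrays, without rows under the median mean, and with a prior variance by level. In the 150 counts with an array left out it stayed at 0. Of 2670 single values under alternatives, 213 changed sign, none of them past an adjusted p of 0.05, and their largest main change was 0.42. Without the replicate block the count of the 10 genes called remained 0 in every comparison, and JUNB in SU-DHL-4 under Ento+AZD had a limma adjusted p of 0.116, with FOS at 0.150 and IER2 at 0.144. The block was kept for the study's batch term. Deviations of same-numbered arrays correlated at -0.11 to 0.39 in SU-DHL-4 (12 of 18 pairs over 0.1), with a median of 0.15. The median for arrays of unlike number there was -0.07. In DG-75 the range was -0.35 to 0.34 (7 of 18), with medians of 0.04 and -0.01. Same-numbered arrays thus tended to deviate together in SU-DHL-4 and hardly so in DG-75, and what the numbers stand for is not stated. Subtraction of array medians moved the median of all rows by 0.12 under Ento, 0.12 under AZD and 0.13 under Ento+AZD in SU-DHL-4. CD69 under Ento+AZD over both lines kept its call in 12 of 12 fits with 1 array left out. The small number of arrays sets the precision.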
